A study of Mus musculus with 4 samples.

Results

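The genes described here are those of the mouse testis whose symbol begins with *Tex* and a digit (testis expressed) or with *Spata* (spermatogenesis associated). In the table of reads on the sense strand of gene exons, 30 of 12415 listed features met this rule, 15 with a *Tex* and 15 with a *Spata* symbol. Total testicular RNA had been sequenced from adult C57Bl/6J males at postnatal day 60, with 2 libraries from *Nef-sp*-/- and 2 from *Nef-sp*+/- testes. *Nef-sp* (2610020H08Rik in the table) encodes a putative exoribonuclease of male germ cells. Both genotypes carry the same out-of-frame deletion of 23 bp, made with the nickase form of Cas9 and a pair of guide RNAs, on both alleles in *Nef-sp*-/- and on 1 allele in *Nef-sp*+/- animals. The control is therefore a heterozygote, not a wild type, and the RNA came from the whole organ with all of its cell types. The labels give replicate numbers but do not say that libraries of a genotype came from separate animals. The p-values below therefore rest on the spread between these libraries. In edgeR and DESeq2 the spread of each gene is also drawn towards a trend over all features.

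The symbols *Tex* and *Spata* record the tissue or process in which a gene was first noticed, and most of the encoded proteins are not related to each other. In the testis, spermatogonia divide, spermatocytes pass through meiosis with pairing and recombination of homologous chromosomes, and spermatids then build the acrosome, the midpiece and the tail of the sperm. The genes were ordered by role into 3 lists: meiosis and the germ cell surface, sperm structure, and genes used in many cell types. The rest were kept apart as 8 genes whose role was left unnamed.

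Among these genes, *Tex19.1* and *Tex19.2* are neighbouring copies, and their sequence is shown because a short read cannot always tell them apart. In the mouse build mm9, *Tex19.1* lies on the plus strand at chr11:121007457-121009633 and *Tex19.2* on the minus strand at chr11:120977529-120979991. Their coding sequences of 1056 and 954 bases share a longest identical run of 69 bases, from base 391 to 459 of *Tex19.1* and from base 334 to 402 of *Tex19.2*. This run, within coding exons, is at chr11:121008522-121008590 on the plus strand in *Tex19.1* and at chr11:120978533-120978601 on the minus strand in *Tex19.2*.
Tex19.1 and Tex19.2 shared run: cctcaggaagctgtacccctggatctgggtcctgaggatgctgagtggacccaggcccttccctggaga
Over the annotated protein-coding transcripts, 50 of 1870 stretches of 50 bases in *Tex19.1* (2.67%) also occur in another gene. For *Spata22* this held for 942 of 3400 stretches (27.7%), which are shared with the olfactory receptor genes *Olfr20*, *Olfr376* and *Olfr384*. *Olfr20* is annotated on the same strand and shares 961 exon bases with it. In *Spata1* 57 stretches (1.44%) and in *Tex19.2* 50 stretches (2.50%) were shared, and in the other members none. The counts of *Spata22*, *Tex19.1*, *Tex19.2* and *Spata1* are uncertain to that extent. It is not given how reads with several matches were assigned, or reads in exons that overlapping genes share, as in *Spata22*.

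Promoter sequences of 24 members, with 28 annotated starts, were taken from RefSeq on build GRCm38.p6 as the 250 bases before and the 50 bases after the start. They were searched on both strands for 4 letter strings: the cAMP response element TGACGTCA, bound by CREB family factors such as the spermatid factor CREM, its shorter form TGACGT, which lies within it, the MYB string AACCGTT, read by the meiotic factor MYBL1, and the short X-box string GTTGCCA, read by RFX factors. No promoter entry was matched for *Tex11*, *Tex13*, *Tex15*, *Tex22*, *Tex24* and *Spata2L*. The 3 promoters below are shown because they are the member windows with a match to one of the 3 longer strings, which is in capitals. The start site follows the first 250 bases of each.
Spata4, chr8:54600531-54600830, plus strand, X-box string in capitals: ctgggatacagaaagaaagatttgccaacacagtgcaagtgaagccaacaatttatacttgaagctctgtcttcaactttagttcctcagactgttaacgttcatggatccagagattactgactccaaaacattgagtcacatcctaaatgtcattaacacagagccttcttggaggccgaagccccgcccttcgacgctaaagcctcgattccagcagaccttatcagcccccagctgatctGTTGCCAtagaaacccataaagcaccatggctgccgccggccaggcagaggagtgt
Spata7, chr12:98627892-98628191, plus strand, cAMP response element in capitals: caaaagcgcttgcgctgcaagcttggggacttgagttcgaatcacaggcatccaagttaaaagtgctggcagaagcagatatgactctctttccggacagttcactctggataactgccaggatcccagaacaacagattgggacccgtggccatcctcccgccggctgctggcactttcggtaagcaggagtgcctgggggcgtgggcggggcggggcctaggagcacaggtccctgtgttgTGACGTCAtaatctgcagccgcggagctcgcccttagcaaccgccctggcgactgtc
Tex21, chr12:76246697-76246996, minus strand, MYB string in capitals, here on the opposite strand: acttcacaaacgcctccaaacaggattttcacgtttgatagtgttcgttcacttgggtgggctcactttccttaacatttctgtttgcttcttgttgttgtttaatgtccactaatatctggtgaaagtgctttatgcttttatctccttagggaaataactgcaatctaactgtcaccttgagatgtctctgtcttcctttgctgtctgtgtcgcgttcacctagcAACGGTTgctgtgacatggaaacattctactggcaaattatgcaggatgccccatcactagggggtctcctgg
The cAMP response element was found in 1 of the 28 member promoters and in 1.79% of all 32851 promoters of this length. Its shorter form was found in 4 member promoters, those of *Spata5*, *Spata6*, *Spata7* and *Tex19.2*, and in 7.51% of all. The MYB string was found in 1 member promoter against 0.913% of all, and the X-box string in 1 against 4.38% of all. A match describes the letters in the window, and binding was not measured.

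The libraries held 20659865 to 34442517 reads in all annotation categories, of which 76.5% to 77.4% were exon sense reads, and members took 1.06% to 1.10% of the exon sense reads in each library. *Nef-sp* itself had 1842.6 and 1692.9 normalized counts in *Nef-sp*+/- libraries, against 406.5 and 497.0 in *Nef-sp*-/-. This log2 fold change of −1.97 (adjusted p = 4.12e-06, edgeR) went with the genotype labels. A normalized count is a read count scaled to the mean of the effective library sizes. Listed markers of germ cells, Sertoli, Leydig, peritubular and macrophage cells were above 0 in the table. Of the markers in the 9 cell type lists 0 passed the test, against 0.00932% of all exon sense features tested. The 5 Leydig cell markers summed to 17486 and 17369 normalized counts in *Nef-sp*+/- and to 16545 and 13931 in *Nef-sp*-/- libraries, where *Cyp17a1* and *Cyp11a1* had log2 fold changes of −0.27 and −0.35 with an unadjusted p below 0.05 (edgeR). The other 3 (*Star*, *Hsd3b1* and *Insl3*) had log2 fold changes of 0.08 to 0.18, the median of the list was 0.08, and its part in the values below was not tested. In whole-testis RNA, fewer cells of a type and less RNA per cell cannot be told apart.

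Levels between genes were compared as normalized count per kilobase of annotated exon. This length holds every exon base of any annotated transcript of a gene, whether or not that transcript is made in the testis. *Spata6* has 14 transcripts and 5616 such bases, and *Spata16* has 2 transcripts and 2112 bases. The order below depends on this choice, and lengths of single transcripts were not tested. *Spata4* had the highest level, 24005 ± 540 per kilobase (SD, n = 4 libraries), 2.32 times that of the next member and at the 99.8th percentile of the 11484 exon sense features with a length. *Spata19*, a mitochondrial protein of the sperm midpiece, came next with 10355 ± 471. *Spata20*, which encodes a protein with a thioredoxin domain, and *Spata21*, a protein with EF-hand calcium-binding motifs, followed with 9750 ± 680 and 9738 ± 563. The ranges of these last 3 genes over the 4 libraries overlapped from neighbour to neighbour, while that of *Spata4* stood above them. *Spata16*, a Golgi and acrosome protein mutated in human globozoospermia, was at 4944 ± 136. *Spata6*, needed for the joint of sperm head and tail, was at 4165 ± 243, and *Tex2*, a lipid transfer protein of the endoplasmic reticulum, overlapped it with 4084 ± 116. *Tex101*, a glycoprotein anchored to the germ cell surface, closed the 8 highest with 3569 ± 281. Of the 8 highest per kilobase, 7 were also among the 8 members with the most reads.

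The median member had 894 normalized counts per kilobase, against 87.1 over all features with a length. *Spata* genes had a median level of 2419 per kilobase and *Tex* genes one of 419. Above the median of all features were 25 members, 14 were in the highest 10% and 4 in the highest 1%. The lowest levels were those of *Tex13* with 14.7 ± 2.39 and *Spata2* with 17.4 ± 5.18 per kilobase, whose ranges overlapped, so that the members spanned a 1627-fold range of levels. *Tex16*, *Tex11*, *Spata22*, *Tex19.1* and *Spata2L* stood next to these, between 34.2 and 97.7 per kilobase. Of the 29 pairs of neighbours in the order of levels, 12 overlapped in their range over the libraries, and no member moved by more than 2 ranks between libraries.

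**Figure D1:**
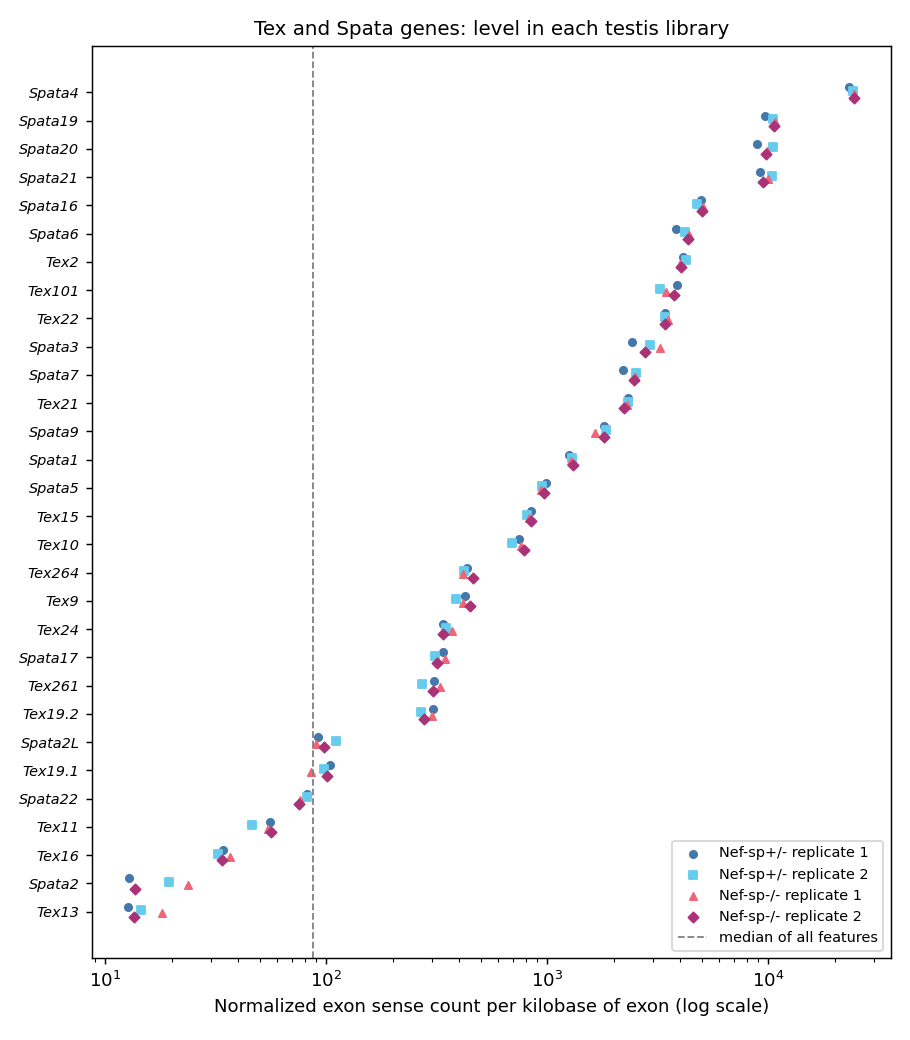
Normalized exon sense count per kilobase of exon (log scale) of the 30 *Tex* and *Spata* genes in each of the 4 libraries, with genes ordered by their mean and 1 symbol per library. The dashed line is the median of all features with a length (87.1), and the members run from *Spata4* at 24005 to *Tex13* at 14.7 with the symbols of both genotypes side by side.

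All 3 members on the X chromosome were in the lower part of this order. *Tex11*, a crossover factor of male meiosis, had 53.2 ± 4.67, *Tex16* 34.2 ± 1.79 and *Tex13* 14.7 ± 2.39 normalized counts per kilobase. The median level of 412 features of the X chromosome was 20.03, and that of 11064 autosomal features 92.4. *Tex19.2* was 2.73 to 3.50 times as high per kilobase as its copy *Tex19.1* in the 4 libraries, with 288 ± 17.1 against 97.2 ± 8.09.

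Whether the loss of *Nef-sp* goes with a different level of these genes was examined by comparing *Nef-sp*-/- with *Nef-sp*+/-. All 30 members passed the expression filter, and 0 of 30 had an adjusted p below 0.05 in edgeR, which was also the count with DESeq2. Over all features tested, 0.00932% of 10728 were below the threshold in edgeR and 0.0161% of 12415 in DESeq2. The share in edgeR is 1 feature, *Nef-sp* itself. With an unadjusted p below 0.05 there were 0 members by edgeR and 0 by DESeq2, against 4.80% of all features by edgeR. The adjusted p of members ranged from 0.954 to 0.990 (edgeR).

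The precision of these comparisons was set by the log2 fold changes and their intervals. The 95% interval of the log2 fold change included 0 for all 30 members and lay within −1 and 1 for all 30, against 94.7% of all features. It lay within −0.5 and 0.5 for 28 members against 76.9% of all features, and within −0.25 and 0.25 for 19 members against 41.4%. The standard error of members ranged from 0.0570 to 0.260 with a median of 0.0728, against 0.0893 over all features. The median log2 fold change was 0.04 in members and 0.00 over all features, and the median of absolute values was 0.0687 and 0.0715. In 27 members the difference between genotypes was smaller than that between the replicates of at least 1 genotype. This count was not made over all features, so it does not set the members apart. The median absolute log2 difference between *Nef-sp*+/- replicates was 0.104 in members and 0.0970 over all features. Between *Nef-sp*-/- replicates it was 0.0643 and 0.0960.

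Fold changes above 0 were seen in 22 members and below 0 in 8, or 73.3% above 0 against 49.9% of all features. With the library size of all categories in place of normalization within exon reads, the split was 16 to 14, against 40.7% of all features above 0. Libraries of the genotypes did not overlap in 9 members, of which *Spata4*, *Spata16*, *Spata19*, *Tex10* and *Spata6* were higher in *Nef-sp*-/- and *Spata22*, *Spata9*, *Tex2* and *Tex21* lower. Over all features, 34.5% did not overlap, 16.4% being higher and 18.1% lower in *Nef-sp*-/-.

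**Figure D2:**
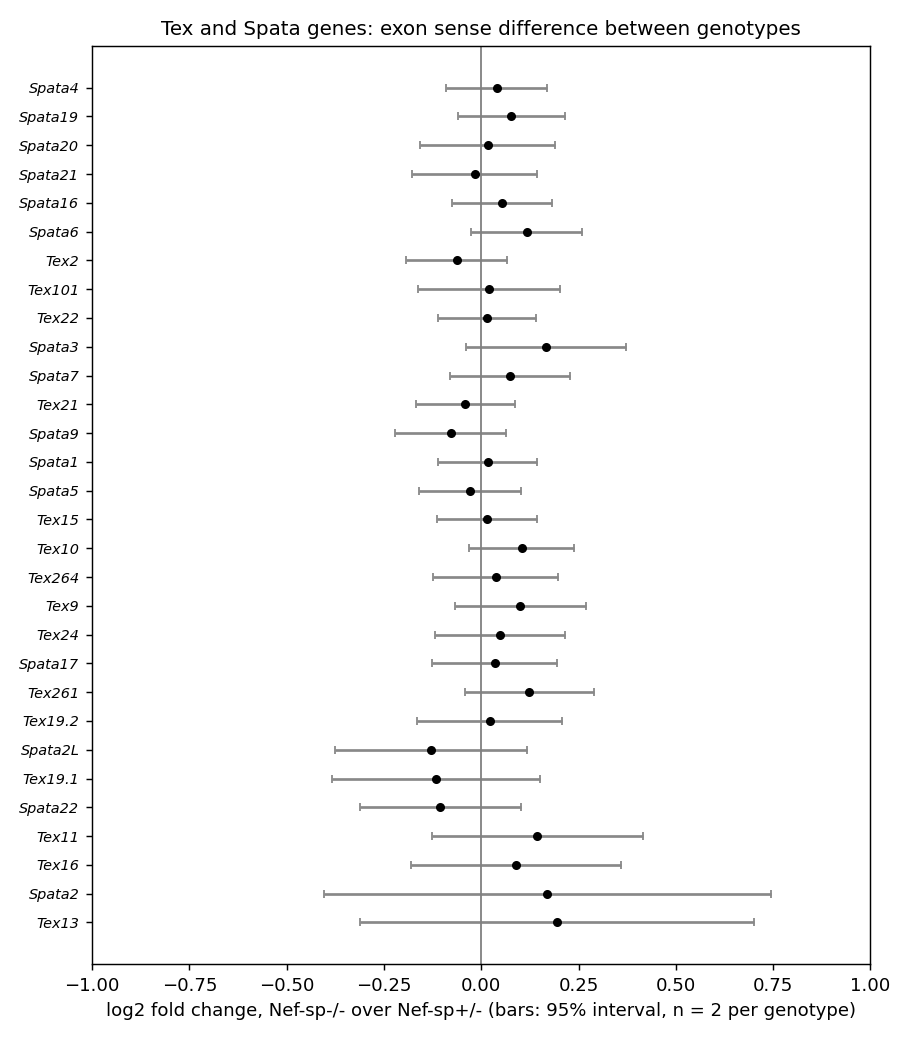
Log2 fold change of exon sense reads, *Nef-sp*-/- over *Nef-sp*+/-, of each member (points) with its 95% interval from edgeR (bars, n = 2 libraries per genotype), in the order of levels. Every interval crosses 0, and the widest are those of *Spata2* (−0.40 to 0.74) and *Tex13* (−0.31 to 0.70), which have the fewest reads.

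Of the list for meiosis and the germ cell surface, 5 of 6 genes were listed (*Tex14* was not analysed here). Of these, 0 passed the test, against 0.00932% of all features, and the median log2 fold change was 0.01. *Tex15*, which takes part in meiotic recombination and in the silencing of transposons, had 8088 and 7806 normalized counts in *Nef-sp*+/- libraries, against 7972 and 8083 in *Nef-sp*-/-. Its genotypes overlapped, with a log2 fold change of 0.01 (95% interval −0.11 to 0.14), among the narrowest intervals of all members. *Tex101* had 4071 and 3408 normalized counts in *Nef-sp*+/- libraries, against 3642 and 3927 in *Nef-sp*-/-, so that the *Nef-sp*+/- pair enclosed the *Nef-sp*-/- pair, with a log2 fold change of 0.02 (95% interval −0.16 to 0.20).

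The other meiotic genes were lower and less precise. *Spata22*, which acts with MEIOB on single-stranded DNA in recombination, had 281 in both *Nef-sp*+/- libraries and 263 and 259 normalized counts in *Nef-sp*-/-, without overlap and with a log2 fold change of −0.10 (95% interval −0.31 to 0.10). *Tex11* had 201 and 168 in *Nef-sp*+/- libraries, against 199 and 204 in *Nef-sp*-/-, where *Nef-sp*+/- replicate 2 was the low library, with a log2 fold change of 0.14 (95% interval −0.13 to 0.42). *Tex19.1*, which restrains retrotransposons in germ cells, had 196 and 184 normalized counts against 161 and 188 in *Nef-sp*-/-. Its lowest library was *Nef-sp*-/- replicate 1, and its log2 fold change was −0.12 (95% interval −0.38 to 0.15).

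Of the sperm structure list, 9 of 13 genes were listed and 0 passed the test, against 0.00932% of all features. Of the 9, 7 had a fold change above and 2 below 0, against 49.9% of all features above 0. The median log2 fold change was 0.04. *Spata18*, *Spata24*, *Spata25* and *Tex40* were not analysed here under these symbols. *Spata4* had 24536 and 25517 normalized counts in *Nef-sp*+/- libraries, against 25626 and 25812 in *Nef-sp*-/-. The genotypes did not overlap, and the log2 fold change was 0.04 (95% interval −0.09 to 0.17). *Spata19* had 7957 and 8645 in *Nef-sp*+/- libraries, against 8791 and 8737 in *Nef-sp*-/-, again without overlap and with *Nef-sp*+/- replicate 1 lowest, with a log2 fold change of 0.08 (95% interval −0.06 to 0.22). *Spata16* had 10451 and 10048 normalized counts against 10725 and 10545 in *Nef-sp*-/-, with a log2 fold change of 0.05 (95% interval −0.08 to 0.18).

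*Spata6* had the lowest unadjusted p of the members, 0.0972 (edgeR, adjusted p = 0.954), and lies on the plus strand of mm9 at chr4:111392589-111501789. Its normalized counts were 21450 and 23445 in *Nef-sp*+/- libraries, against 24447 and 24232 in *Nef-sp*-/-. Both *Nef-sp*-/- libraries were above both controls, by a log2 fold change of 0.12 (95% interval −0.03 to 0.26). *Spata3*, on the plus strand at chr1:87913391-87926533, had 4940 and 5952 normalized counts in *Nef-sp*+/- libraries, against 6576 and 5669 in *Nef-sp*-/-. *Nef-sp*+/- replicate 1 was the lowest and *Nef-sp*-/- replicate 1 the highest library, the genotypes overlapped, and the log2 fold change was 0.17 (95% interval −0.04 to 0.37).

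Of the other 4 genes of the list, 3 overlapped between genotypes and *Spata9* did not. *Spata20* had 25490 and 30231 normalized counts in *Nef-sp*+/- libraries, against 28417 and 27952 in *Nef-sp*-/-, and *Spata21* had 23145 and 26329 against 25137 and 23780. In both genes the *Nef-sp*+/- pair enclosed the *Nef-sp*-/- pair, with log2 fold changes of 0.02 and −0.02. *Spata17*, whose protein has calmodulin-binding IQ motifs, had 967 and 894 normalized counts against 986 and 913 in *Nef-sp*-/-, with a log2 fold change of 0.03. *Spata9* had 1984 and 2030 normalized counts in *Nef-sp*+/- libraries, against 1819 and 1983 in *Nef-sp*-/-, a margin of about 1 count between the nearest libraries of the genotypes, with a log2 fold change of −0.08 (95% interval −0.22 to 0.06).

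One control library was often the lowest in this list. *Nef-sp*+/- replicate 1 was the lowest of the 4 libraries for 6 of the 9 sperm structure genes and for 11 of all 30 members, against 26.8% of all features. Over all members *Nef-sp*+/- replicate 2 was the lowest library nearly as often, for 10 of 30 against 22.9% of all features. *Nef-sp*+/- replicate 1 was also the lowest library for 5 of 5 markers of elongating spermatids (*Prm1*, *Prm2*, *Tnp1*, *Tnp2* and *Odf1*). Their summed normalized counts were 334410 in that library, 414844 in *Nef-sp*+/- replicate 2, and 421142 and 408934 in *Nef-sp*-/-. The 5 markers of round spermatids summed to 30019 and 30537 in *Nef-sp*+/- and to 28975 and 30349 in *Nef-sp*-/- libraries, with *Nef-sp*-/- replicate 1 lowest. Without *Nef-sp*+/- replicate 2, so that *Nef-sp*+/- replicate 1 was the only control and was assumed to vary like the others, 2 members passed the test. These were *Spata3*, higher by 0.31 on the log2 scale (adjusted p = 0.0031, edgeR), and *Spata6*, higher by 0.18 (adjusted p = 0.0407, edgeR). In that comparison 252 features or 2.32% passed in either direction, and 2.03% were higher in *Nef-sp*-/-. Without *Nef-sp*+/- replicate 1, 0 members passed, 0.376% of all features did, and the log2 fold changes of *Spata3* and *Spata6* were 0.04 and 0.05. The part of the spermatid markers in these values was not tested.

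**Figure D3:**
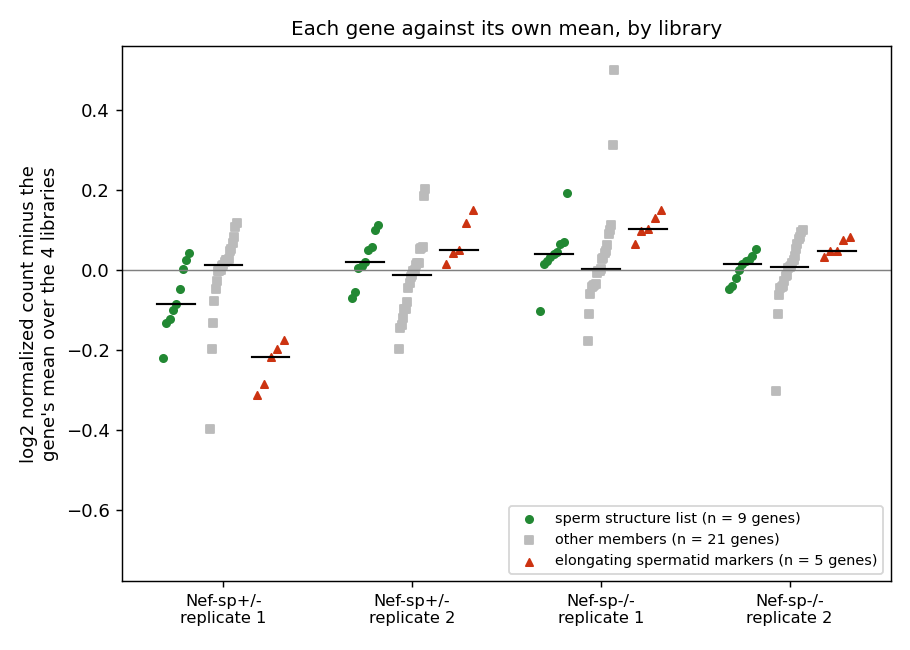
Log2 normalized count of each gene minus its own mean over the 4 libraries, by library, for the 9 listed genes of the sperm structure list, the other 21 members and 5 markers of elongating spermatids, with short bars at the medians. In *Nef-sp*+/- replicate 1, all 5 markers lie below 0 and 6 of the 9 sperm structure genes are at their lowest.

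Of the genes used in many cell types, 8 of 11 were listed and 0 passed the test, against 0.00932% of all features. Their median log2 fold change was 0.06. *Spata13*, *Spata5l1* and *Tex30* were not analysed here. *Tex10*, which joins PELP1 and WDR18 in a complex for ribosome maturation, had 3248 and 3041 normalized counts in *Nef-sp*+/- libraries, against 3320 and 3434 in *Nef-sp*-/-. The *Nef-sp*-/- libraries were both higher, with a log2 fold change of 0.10 (95% interval −0.03 to 0.24). *Tex2* had 22901 and 23635 in *Nef-sp*+/- libraries, against 22221 and 22325 in *Nef-sp*-/-, where both were lower, with a log2 fold change of −0.06 (95% interval −0.19 to 0.07). *Spata7*, known for the connecting cilium of photoreceptors, had 10221 and 11658 normalized counts against 11555 and 11490 in *Nef-sp*-/-. Here too *Nef-sp*+/- replicate 1 was the low library, the genotypes overlapped, and the log2 fold change was 0.07.

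*Tex261*, a protein of transport from the endoplasmic reticulum, had 1253 and 1114 normalized counts in *Nef-sp*+/- libraries, against 1332 and 1239 in *Nef-sp*-/-, with a log2 fold change of 0.12 (95% interval −0.04 to 0.29) and overlap between the genotypes. *Tex264*, a receptor for autophagy of the endoplasmic reticulum, had 986 and 948 against 938 and 1045 in *Nef-sp*-/-, and *Spata5*, an AAA-type ATPase of ribosome maturation, had 3754 and 3583 against 3536 and 3655. Both overlapped between genotypes, with log2 fold changes of 0.04 and −0.03. *Spata2*, which links the deubiquitinase CYLD to the linear ubiquitin ligase complex, had only 57.5 and 87.3 normalized counts in *Nef-sp*+/- libraries, against 107 and 61.5 in *Nef-sp*-/-. Each genotype had a high and a low library, and the log2 fold change was 0.17 with the largest standard error of the members, 0.260. *Spata2L*, its relative, had 262 and 315 normalized counts against 256 and 278 in *Nef-sp*-/-, with overlap and a log2 fold change of −0.13 (95% interval −0.38 to 0.12).

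The 8 remaining genes, *Spata1*, *Tex9*, *Tex13*, *Tex16*, *Tex19.2*, *Tex21*, *Tex22* and *Tex24*, had log2 fold changes from −0.04 to 0.19. Of these, 0 passed the test, against 0.00932% of all features. *Tex13* had the largest value of all members, 0.19 (95% interval −0.31 to 0.70), on 35.7 and 40.8 normalized counts in *Nef-sp*+/- libraries, against 50.8 and 37.9 in *Nef-sp*-/-. *Nef-sp*-/- replicate 1 alone was high, and the genotypes overlapped. *Tex22* differed least between libraries, with 4346 and 4319 normalized counts against 4442 and 4318 in *Nef-sp*-/- and a log2 fold change of 0.02 (95% interval −0.11 to 0.14). *Spata1* had 5170 and 5320 normalized counts in the controls and 5248 and 5365 in *Nef-sp*-/- testes, with overlap and a log2 fold change of 0.02. *Tex21* had 5398 and 5370 in *Nef-sp*+/- libraries, against 5319 and 5150 in *Nef-sp*-/-, without overlap, with a log2 fold change of −0.04. In *Tex9* the normalized counts were 854 and 771 against 837 and 898 in *Nef-sp*-/-, in *Tex16* 152 and 144 against 163 and 150, and in *Tex19.2* 623 and 549 against 613 and 569. All 3 overlapped between genotypes.

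Reads in introns on the sense strand can come from unspliced RNA or from other transcripts within the intron, and were counted separately for 24 members. *Spata2*, *Tex11*, *Tex16*, *Tex19.1*, *Tex19.2* and *Tex264* had no row there. Per 100 exon reads, the median member had 1.31 intron reads over the 4 libraries, against 1.52 over all 6441 features with both rows. *Tex13*, at chrX:137342846-137347972 on the minus strand, had more intron than exon reads, with 226 and 160 intron reads per 100 exon reads in *Nef-sp*+/- libraries, against 182 and 200 in *Nef-sp*-/-. Its introns (2327 bases) are shorter than its exons (2800 bases). *Spata17* was next with 64.8 and 68.7 in *Nef-sp*+/- libraries, against 71.9 and 71.1 per 100 exon reads in *Nef-sp*-/-, from introns of 167947 bases that also hold exons of Gm15509, a processed transcript on the same strand. At the low end, *Tex2* had 0.0491 and *Spata21* 0.0382 intron reads per 100 exon reads over all libraries.

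**Figure D4:**
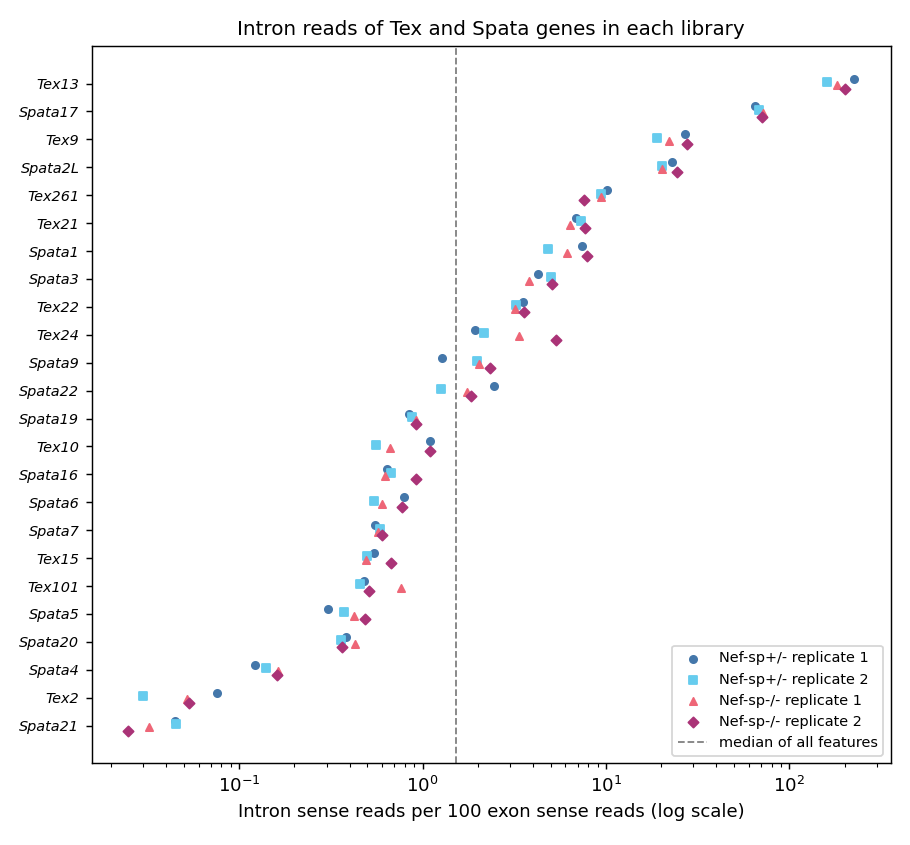
Intron sense reads per 100 exon sense reads (log scale) of the 24 members with an intron row, by library, ordered by the value over all libraries. The dashed line is the median of all features with both rows (1.52), *Tex13* and *Spata17* lie far to the right in all 4 libraries, and *Tex24* has both *Nef-sp*-/- symbols to the right of both *Nef-sp*+/- symbols.

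Between genotypes, 22 of the 24 members passed the filter on intron reads, and 0 had an adjusted p below 0.05 by edgeR or DESeq2, against 0.0294% of all 3403 features tested by edgeR. With an unadjusted p below 0.05 there was 1 member by edgeR, *Tex24*, and 0 by DESeq2, against 2.35% of all features by edgeR. *Tex24*, at chr8:28454866-28459660 on the plus strand, had 10 and 19 intron reads in *Nef-sp*+/- libraries, against 19 and 27 in *Nef-sp*-/-. Scaled for library size, these were 11.2 and 14.0 against 22.6 and 29.7 normalized counts in *Nef-sp*-/-, without overlap. The log2 fold change of its intron reads was 1.03 (95% interval 0.30 to 1.75, unadjusted p = 0.0080, adjusted p = 0.9996, edgeR). Its exon reads, 595 and 615 normalized counts against 655 and 599 in *Nef-sp*-/-, overlapped, with a log2 fold change of 0.05. Besides *Tex24*, the libraries of *Spata4* and *Spata5* did not overlap, so that 3 of 22 members were higher in all *Nef-sp*-/- libraries and 0 lower, against 13.5% and 14.5% of all features and 28.0% in either direction. Of the 22 members, 18 had an intron fold change above 0 and 4 below, against 52.1% above 0 over all features. The values of the other 21 members ran from −0.11 to 0.43 in log2 fold change, and for 18 members the 95% interval of the intron fold change lay within −1 and 1.

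Antisense reads were few. Only features with at least 5 reads over the libraries have a row. On the opposite strand of exons, 8 members had a row and 1, *Spata17*, passed the filter. It had 28 and 49 reads in *Nef-sp*+/- libraries, against 29 and 19 in *Nef-sp*-/-, and a log2 fold change of −0.24 (95% interval −0.81 to 0.32). On the opposite strand of introns, 6 members had a row and 3 passed the filter, *Spata1*, *Spata17* and *Spata2L*. In both categories 0 members and 0% of all features had an adjusted p below 0.05 by edgeR, and 0 members had an unadjusted p below 0.05 by edgeR or DESeq2, against 2.98% of all features for exon and 4.50% for intron antisense reads by edgeR. *Spata2L*, at chr8:125754423-125760109 on the minus strand, had 205 and 302 intron antisense reads in *Nef-sp*+/- libraries, against 175 and 176 in *Nef-sp*-/-, or 75.8 per 100 exon sense reads over all libraries. Scaled for library size, these were 239 and 213 against 201 and 206 normalized counts in *Nef-sp*-/-, with a log2 fold change of −0.14 (95% interval −0.39 to 0.12). In the annotation, *Cdk10*, on the opposite strand, has 843 exon bases within *Spata2L* introns and shares 91 exon bases with it. The noncoding gene 4933417D19Rik, also on the opposite strand, has 427 exon bases within these introns and shares 36 exon bases with *Spata2L*. For *Spata17* the value was 15.7 per 100 exon sense reads, with 1700007P06Rik annotated on the opposite strand within its introns. The other 4 had at most 0.393 intron antisense reads per 100 exon sense reads.

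Genes whose proteins are known to work with those of the members were examined as a list of 19, of which 16 were listed. Of these, 0 passed the test, against 0.00932% of all features. An unadjusted p below 0.05 (edgeR) was found for 2, against 4.80% of all features. *Pelp1*, the partner of *Tex10* in ribosome maturation, had 759.6 and 766.9 normalized counts in *Nef-sp*+/- libraries, against 613.2 and 608.2 in *Nef-sp*-/-. Both *Nef-sp*-/- libraries were lower, with a log2 fold change of −0.32 (95% interval −0.47 to −0.17, adjusted p = 0.721, edgeR). *Wdr18*, of the same complex, had 864.3 and 802.8 against 766.8 and 795.1 in *Nef-sp*-/-, with a log2 fold change of −0.09. *Las1l*, with few reads, had a log2 fold change of 0.00 (95% interval −0.49 to 0.48) and *Senp3* one of −0.03 (−0.17 to 0.11). *Catsper3*, a pore subunit of the sperm calcium channel to which the *Tex40* protein also belongs, had 1032.4 and 1085.2 normalized counts in the controls, both above the 893.8 and 984.5 counts of the *Nef-sp*-/- libraries. The log2 fold change of *Catsper3* was −0.18 (95% interval −0.33 to −0.02, adjusted p = 0.954, edgeR), and those of *Catsper1*, *Catsper2*, *Catsper4*, *Catsperb* and *Catsperg2* (1700067C01Rik in the table) ran from −0.10 to 0.09. *Sycp2*, *Ubr2*, *Ly6k* and *Cyld*, partners of *Tex11*, *Tex19.1*, *Tex101* and *Spata2*, had log2 fold changes of 0.06, 0.20, 0.07 and 0.05. That of *Ubr2* rested on few reads (95% interval −0.18 to 0.57).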

How the data were processed

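Raw counts of the 4 libraries were analysed. Per the labels and methods, RNA was depleted of ribosomal RNA with Ribo-Zero and made into strand-specific TruSeq libraries read for 50 cycles. With in-house tools, the authors aligned reads to mm9 and deposited raw counts of perfectly matching reads per feature, annotation category and strand, for features with at least 5 reads over the libraries. The authors' mean normalized signal, fold changes and p-values of DESeq2 in the same table were not used.

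Each category was fitted with the quasi-likelihood test of edgeR 4.0.16 (R 4.3.3) after TMM normalization, on features past its expression filter (minimum count 10), without covariates. P-values were adjusted (Benjamini-Hochberg) over the category, with a threshold of 0.05, and 95% intervals come from the fold change and its F statistic. Exon lengths and overlaps were taken from GENCODE vM1 on mm9, promoters from RefSeq on GRCm38.p6. Totals were 20659865 to 34442517 reads per library, and members had 165 to 113308 exon reads in all. *Spata2* and *Tex13*, the members with the fewest reads, had the widest intervals.

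Members and lists were chosen with earlier results of these data known. Named with values were the 8 highest members per kilobase, the 5 largest fold changes in each direction, members with a p below 0.05, and the role lists. One symbol with the prefix is not reported here. Alternatives were DESeq2 1.42.0, its size factors in edgeR, the library size of all categories, no filter, at least 10 counts in every library, a replicate block, and leaving out each library in turn. The test was checked on counts simulated with the dispersion trend of the same fit. Of 10442 unchanged features 7 were called, and the 95% interval held the set value for 95.2%. Of the changed features, 36 of 50 were called at an absolute log2 change of 0.5 and 47 of 50 at 1. Changes smaller than 0.5 were not simulated. Because the simulated counts followed the model of the test, the check cannot show how the test behaves where real libraries depart from it. Figures were drawn with matplotlib 3.10.9.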

Additional observations from a re-analysis of the deposited data

How the results depend on the processing

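Members with an adjusted p below 0.05 in exon reads numbered 0 under every alternative except with a library left out, where they numbered 0 to 2. All exon sense features below the threshold numbered 1, 2 with DESeq2, and 1 to 252 with a library left out, the highest value being that without *Nef-sp*+/- replicate 2. The fit without *Nef-sp*+/- replicate 1 called 41 features. The median log2 fold change of members, 0.04, was 0.0121 with the library size of all categories and 0.0145 to 0.0462 with a library left out. The median over all features also moved with that library size, from −0.0002 to −0.0235, so the shift is not particular to members. With it, 6 members changed sign: *Spata1* −0.0077, *Spata20* −0.0069, *Tex101* −0.0053, *Tex15* −0.0098, *Tex19.2* −0.0015 and *Tex22* −0.0084. With a library left out, 16 members changed sign in at least 1 fit. Their log2 fold changes ran from −0.0031 to 0.0379 in *Spata1*, −0.0249 to 0.0921 in *Spata17*, −0.2901 to 0.5566 in *Spata2*, −0.1004 to 0.1453 in *Spata20*, −0.1055 to 0.08 in *Spata21*, −0.2359 to 0.0261 in *Spata2L*, −0.062 to 0.0058 in *Spata5* and −0.0161 to 0.1733 in *Spata7*. They ran from −0.1049 to 0.1521 in *Tex101*, −0.0022 to 0.2632 in *Tex11*, −0.0352 to 0.3912 in *Tex13*, −0.0104 to 0.0411 in *Tex15*, −0.0741 to 0.1071 in *Tex19.2*, −0.0049 to 0.0397 in *Tex22*, −0.0179 to 0.1148 in *Tex24* and −0.0388 to 0.1134 in *Tex264*. The cause was not tested. None of these fold changes was past the threshold. The intron fold change of *Tex24* stayed between 0.81 and 1.21, with an adjusted p of at least 0.642 (edgeR and DESeq2), in alternatives chosen after its value was seen.

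The replicate numbers do not pair the libraries by the labels. Deviations of same-numbered libraries from their genotype mean correlated with −0.0854 in exon sense and −0.145 in intron sense reads. With the replicate number as a block, 1 exon sense feature and 0 members passed the test. With the numbers crossed, which was chosen after seeing the data, 2 intron sense features and 0 members passed. *Tex13* had the fewest reads of the members, 165 over the 4 libraries, and a standard error of 0.229.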
